A study of Homo sapiens with 6 samples.

Results

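The genes described here are the subunits of the transcription factor NF-kB, their inhibitors and signaling adaptors, and the chemokines, inflammatory cytokines and effector enzymes that NF-kB is known to control. They were listed by gene symbol for these roles, and each was read from 1 probeset, the one with the highest mean over all arrays among those annotated to that gene alone. Of 33 listed genes, 31 were measured, out of 18132 genes on the arrays. BIRC3 and CSF2 were not analysed here. RNA came from xenografts of MDA-MB-231, a human cell line established from a triple-negative breast cancer, in NOD/SCID mice, an immunodeficient strain without functional T and B cells. The mice were 4 to 6 weeks old and received 1000000 cells in PBS and Matrigel under the skin of both flanks. One group was given epinephrine, also under the skin, at 2 mg/kg/d, beginning 7 days before the tumor cells (Epi), and the control group the same volume of PBS. Each group had 3 arrays, called biological replicates 1 to 3 in the labels, which do not say whether they came from 3 different mice. The labels also give Epi replicate 2 another code (E20) than Epi replicates 1 and 3 (E10), with no meaning stated, so whether the 3 Epi arrays were treated alike is not known from them. P-values therefore measure the spread between these arrays only, which includes the shift of the replicate 1 arrays described below. Where the replicate number is fitted as a block, they measure the spread of the differences between same-numbered arrays. All values are the authors' log2 expression values, so that a difference of 1 is a 2-fold difference.

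NF-kB is a dimer of Rel proteins. In a resting cell, inhibitor proteins of the IkB family hold it in the cytoplasm, and inflammatory signals release it to the nucleus, where it switches on chemokines, cytokines and its own inhibitors. MDA-MB-231 is known for constant NF-kB activity and for secreting IL-6, IL-8 and LIF. Beta-adrenergic receptors, through which epinephrine acts, signal mainly by cAMP. Whether that pathway meets NF-kB at these promoters was not tested.

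The tumor cell markers fixed for this line (VIM, CD44 and 7 others) had a mean log2 value of 11.41 to 11.80 on the PBS arrays and 11.20 to 11.75 on the Epi arrays. The means of the other marker lists were low in both groups, at 5.34 to 5.64 and 5.34 to 5.52 for 13 leukocyte markers, 4.62 to 4.75 and 4.44 to 4.97 for 8 fibroblast markers, and 5.36 to 5.94 and 5.67 to 5.83 for 7 endothelial markers. Of the leukocyte markers 6 of 13 were dim (under the 30th percentile of mean expression, 5.69, on every array), among them PTPRC, which encodes the general leukocyte antigen CD45, at most 3.79. Not dim were CD68 (7.13 to 8.96), ITGAX (7.32 to 8.10), TYROBP (7.10 to 7.93), MPO (6.28 to 6.71), AIF1 (6.07 to 6.72), CSF1R (5.15 to 6.24) and CD3E (4.9 to 6.61). By mean difference, 6 of the 13 leukocyte markers lay above 0 and 7 below, with a median of -0.041. CD68, a lysosomal protein of macrophages that other cells also make, lay lower in Epi in 3 of 3 pairs, with a mean difference of -0.55, and did not pass (adjusted p = 0.584 from limma with the block). Of the 7 endothelial markers, 3 lay above 0 and 4 below. Among them PECAM1 (6.32 to 8.53) lay higher in Epi in 3 of 3 pairs, by 0.44, and did not pass (adjusted p = 0.924 from limma with the block). The arrays carry human probes, which may not read mouse RNA, and the part of host cells in the results was not tested. The replicate 1 array of each group was unlike the remaining 4 arrays, with correlations over all genes of 0.935 to 0.962 with them and 0.982 with each other, against 0.972 to 0.989 among those 4. Their median probeset value was also lower (5.98 and 6.05, against 6.37 to 6.42), and their values were stored with at most 6 significant digits, against 9 on the other arrays. Differences are therefore also given without them. In bulk tumors, fewer cells that express a gene and less RNA per cell cannot be told apart.

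The interleukin IL11 was higher and the NF-kB inhibitor TNFAIP3 lower in tumors of epinephrine-treated mice in all 3 replicate pairs, and LIF, PTGS2, CXCL3, NFKB1 and RELA also lay lower in 3 of 3 pairs. Of these, CXCL3 was dim, and PTGS2 lay above the dim level of 5.69 on PBS replicate 3 only. Counted together, 6 of the 31 genes lay lower in 3 of 3 pairs (13.2% of all genes) and 2 lay higher (5.83%), IL11 and the dim CXCL5. The 2 other probesets of CXCL5 differed the other way, by -0.11 and -0.12. Without a replicate block, limma called 0 of the 31 genes and 0 of all 18132 genes (0%) at an adjusted p under 0.05, and the methods' t-test also called 0. At an unadjusted p under 0.05, limma without the block passed 3 of the 31 (TNFAIP3, CXCL3 and LIF, all lower) and 1.33% of all genes. With the replicate number as a block, limma called 2 of the 31, IL11 higher and TNFAIP3 lower, against 0.673% of all genes (0.353% higher and 0.32% lower). At an unadjusted p under 0.05 that fit passed 7 of the 31, of which 6 were lower and 1 higher, and 5.22% of all genes (3.09% lower and 2.12% higher).

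**Figure D1:**
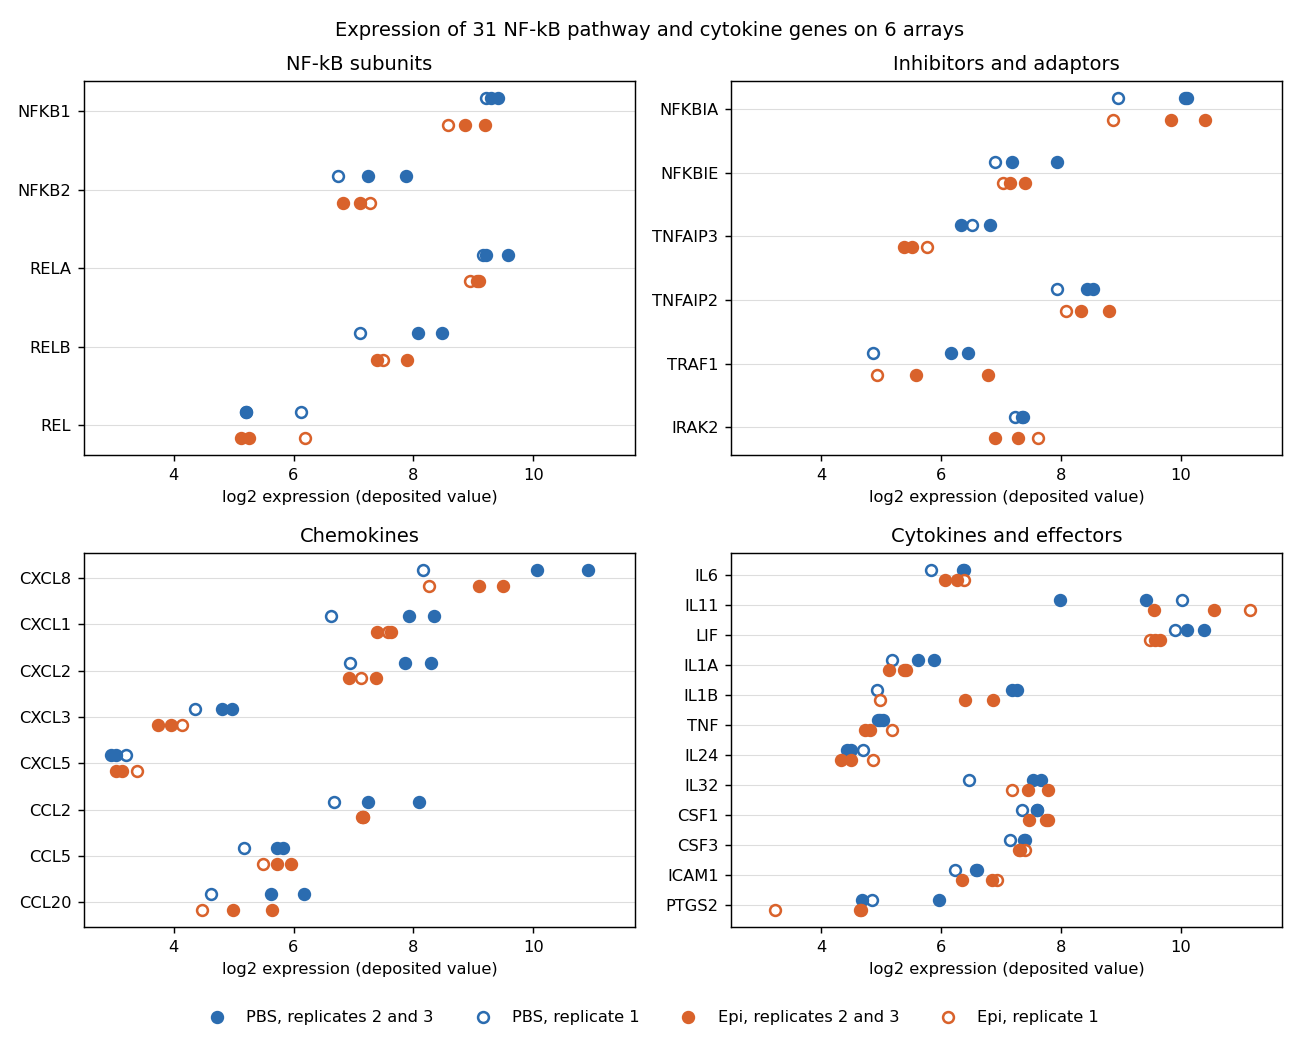
Log2 expression of the 31 genes on each array, with PBS above (blue) and Epi below (orange) the line of each gene and open symbols for the replicate 1 arrays. TNFAIP3 and LIF show no overlap between groups, with TNFAIP3 at 6.33 to 6.82 in PBS and 5.38 to 5.77 in Epi, whereas IL11 ranged from 7.98 to 10.03 in PBS and 9.56 to 11.16 in Epi. The replicate 1 arrays of both groups lie at the low end for CXCL8, IL1B, NFKBIA and TRAF1.

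Of the 31 genes, 20 had a mean difference below 0 (64.5%, against 54.3% of all genes), and the median difference was -0.11, against -0.016 over all genes. By replicate pair, the median of the 31 was 0.17 in pair 1, -0.086 in pair 2 and -0.42 in pair 3. The same medians over all genes were 0.039, -0.047 and -0.080. Leaving out 1 array moved the median of the 31 to between -0.38 (without PBS replicate 1) and 0.001 (without PBS replicate 2). Without both replicate 1 arrays it was -0.28 and 23 lay below 0, against -0.083 and 63.9% over all genes. For 6 of the 31 genes every Epi array lay below every PBS array (2.22% of all genes did so), and for 0 all Epi values lay above (0.982%), 6 in all against 3.2% of all genes. These counts are a description, as the list was written with earlier results of these arrays known.

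**Figure D2:**
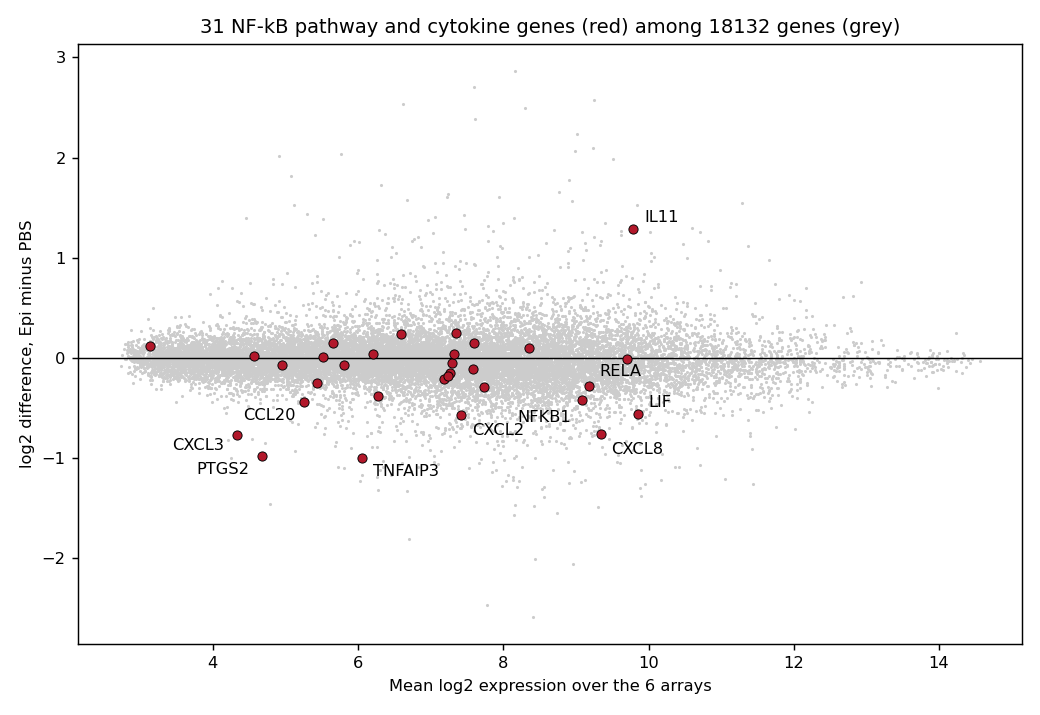
Difference between Epi and PBS (vertical axis, log2) against the mean log2 expression over the 6 arrays (horizontal axis) for the 31 genes in red and all 18132 genes in grey. IL11 (1.28) stands above the others of the list, and TNFAIP3 (-1.0), PTGS2 (-0.98) and CXCL3 (-0.77) lie at its lower edge. PTGS2 and CXCL3 have low means, 4.67 and 4.33.

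Among the 5 Rel proteins, NFKB1 and RELA, which form the classical p50-p65 dimer, were both slightly lower in Epi, and neither passed. NFKB1 stood at 9.21, 9.29 and 9.42 in PBS replicates 1 to 3 and at 8.58, 9.20 and 8.86 in Epi replicates 1 to 3. The groups did not overlap, but the highest Epi value lay only just under the lowest PBS value. Its log2 difference was -0.42 (standard error 0.25, unadjusted p = 0.126 from limma without the block, adjusted p = 1.00, and adjusted p = 1.00 with it). RELA stood at 9.17, 9.58 and 9.21 in PBS and at 8.95, 9.06 and 9.09 in Epi, again without overlap, a difference of -0.28 (standard error 0.23, adjusted p = 1.00 from limma). Its 2 other probesets, which read far lower on the replicate 1 arrays, differed by -0.44 and -0.60. Without the replicate 1 arrays both NFKB1 and RELA differed by -0.32.

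NFKB2 and RELB, the pair of the alternative pathway, changed direction between the replicate pairs. NFKB2 stood at 6.74, 7.87 and 7.24 in PBS and 7.28, 7.11 and 6.82 in Epi, and RELB at 7.11, 8.47 and 8.08 in PBS and 7.49, 7.90 and 7.39 in Epi. Each was higher in Epi in pair 1, by 0.54 and 0.38, and lower in pairs 2 and 3. Their mean differences were -0.21 (standard error 0.32) and -0.29 (standard error 0.37). Without the replicate 1 arrays they were -0.59 and -0.63, with adjusted p-values of 0.155 and 0.120 from limma with the block. REL, which encodes c-Rel, a subunit best known from lymphocytes, stood at 6.13, 5.21 and 5.21 in PBS and 6.19, 5.13 and 5.26 in Epi. It differed by 0.01 (standard error 0.38), and the replicate 1 arrays of both groups were higher than the other 4.

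TNFAIP3 encodes A20, a ubiquitin-editing enzyme that NF-kB induces and that shuts NF-kB signaling down again. Its log2 value was 6.52, 6.33 and 6.82 in PBS (6.56 ± 0.25, SD, n = 3) and 5.77, 5.52 and 5.38 in Epi (5.56 ± 0.20, SD, n = 3). Every Epi array lay below every PBS array, and the pair differences were -0.75, -0.81 and -1.44. The mean difference of -1.0 is a 2.00-fold lower level. Its unadjusted p was 0.00327 without the block (adjusted p = 1.00 from limma), and with the block its standard error was 0.21 and its adjusted p = 0.0411. Without the replicate 1 arrays the difference was -1.12 (adjusted p = 0.0587 from limma with the block), and with the block it did not pass without pair 2 (adjusted p = 0.122) or without pair 3 (-0.78, adjusted p = 0.552) either. After quantile normalization or median centring with the block, the adjusted p was 0.141 and 0.143. A second probeset of TNFAIP3 differed by a smaller -0.43, and its groups nearly touched, at 5.79 in PBS and 5.78 in Epi.

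The other inhibitors and adaptors did not pass in either fit. NFKBIA, which encodes IkB-alpha, the inhibitor that NF-kB itself induces most directly, stood at 8.96, 10.07 and 10.11 in PBS and 8.88, 10.40 and 9.84 in Epi. Its difference was -0.01 (standard error 0.45, and 0.21 with the block), and its 2 other probesets differed by -0.10 and -0.05. NFKBIE, which encodes IkB-epsilon, differed by -0.15 (standard error 0.31). TRAF1, an adaptor of TNF receptors, ranged from 4.86 to 6.46 in PBS and 4.93 to 6.78 in Epi and differed by -0.07. IRAK2, a kinase-like adaptor of interleukin-1 and Toll-like receptors, differed by -0.05 on its probeset with the highest mean and by -0.74 on the other, which was lower in Epi in 3 of 3 pairs and did not pass (adjusted p = 0.646 from limma with the block). TNFAIP2, a TNF-induced gene of membrane protrusion, differed by 0.10, with a range of 7.93 to 8.80 over all arrays.

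**Figure D3:**
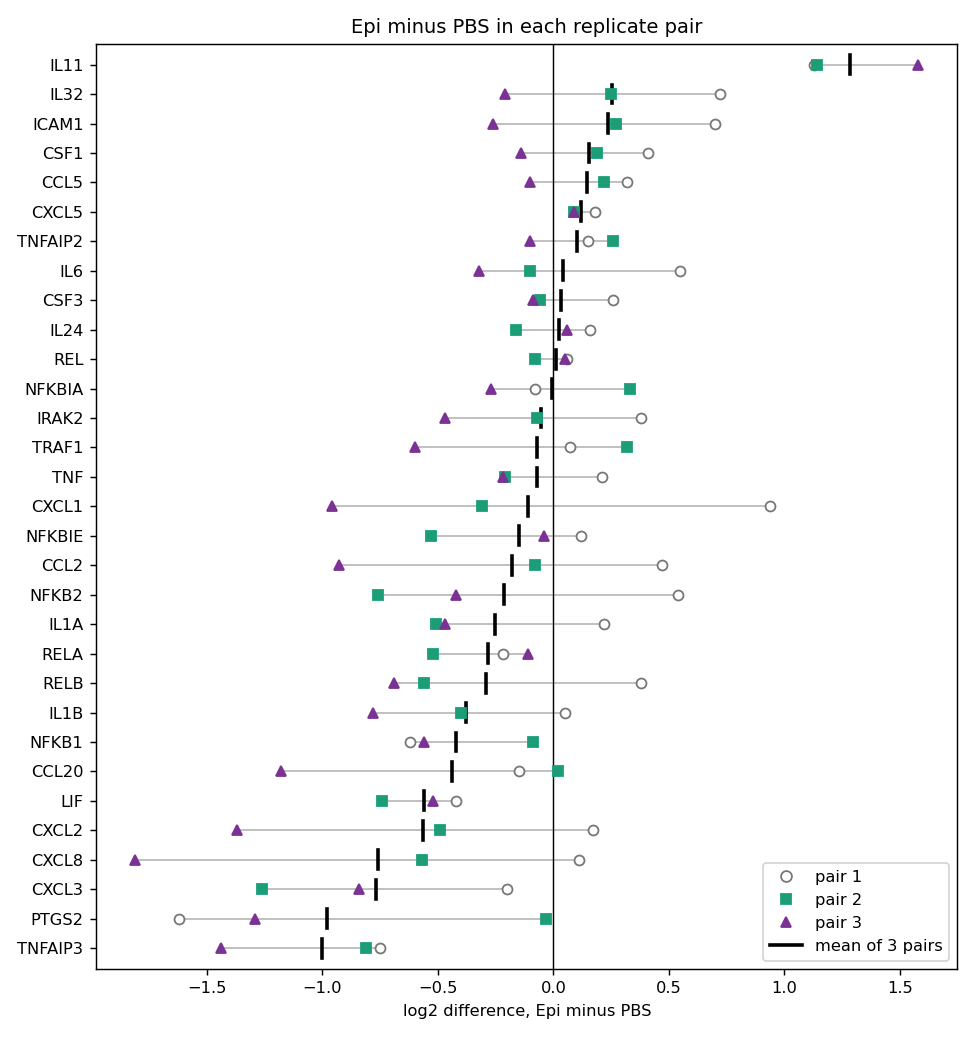
Difference between the Epi and the PBS array of each replicate pair (log2, horizontal axis) for each of the 31 genes, sorted by the mean of the 3 pairs (black bar). IL11 lies above 0 in every pair, at 1.13, 1.14 and 1.58, and TNFAIP3, PTGS2, CXCL3, LIF, NFKB1 and RELA lie below 0 in every pair. CXCL8, CXCL2 and CXCL1 lie above 0 in pair 1 and below 0 in pairs 2 and 3.

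The promoters of several of these genes carry the letters to which NF-kB binds. Promoters were taken from RefSeq (GRCh38.p14, 250 bases before to 50 after a start), which held at least 1 for 24 of the 31 genes, and searched on both strands for the κB consensus. That consensus was GGGRNWYYCC, with R for A or G, W for A or T, Y for C or T and N for any base. A match was found for 12 of the 24 genes (50%), against 5.91% of all 35116 promoters and 7.09% of the 27305 genes that have one. The genes were listed for their known ties to NF-kB, so a high share follows from the list and is a description only. The 4 CXC chemokine genes below have the same letters 78 to 91 bases before the start, and TNFAIP3, NFKBIA, NFKB1 and IL6 are shown beside them as an inhibitor pair, a subunit and a cytokine of the same list. Capitals mark the matched letters, written on the strand of the gene, and matches on both strands overlap in the first 4.
CXCL1 (chr4:73869305-73869333, plus strand, match from base 79 before the start): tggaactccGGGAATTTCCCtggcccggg
CXCL2 (chr4:74099254-74099282, minus strand, from base 78): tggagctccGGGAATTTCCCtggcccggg
CXCL3 (chr4:74038749-74038777, minus strand, from base 79): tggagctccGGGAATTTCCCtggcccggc
CXCL5 (chr4:73998749-73998777, minus strand, from base 91): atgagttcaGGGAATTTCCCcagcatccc
TNFAIP3 (chr6:137867188-137867217, plus strand, from base 67, 2 matches): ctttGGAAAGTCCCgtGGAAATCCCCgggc
NFKBIA (chr14:35404811-35404840, minus strand, from base 81): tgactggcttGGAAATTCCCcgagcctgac
NFKB1 (chr4:102501300-102501329, plus strand, from base 49): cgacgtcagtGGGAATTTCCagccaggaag
IL6 (chr7:22727117-22727146, plus strand, from base 73): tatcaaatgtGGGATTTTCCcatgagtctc
The promoters of IL11 and CXCL8 had no match to this consensus and did hold the AP-1 letters TGANTCA, as 3 of the 24 genes did (12.5%, against 7.71% of all promoters and 9.37% of genes). The full cAMP response element TGACGTCA was found for 1 of the 24, IL32 (4.17%, against 1.85% of all promoters and 2.25% of genes).
IL11 (chr19:55370542-55370570, minus strand, from base 96): ggcagggagggTGAGTCAggatgtgtcag
CXCL8 (chr4:73740421-73740449, plus strand, from base 137): aggaagtgtgaTGACTCAggtttgccctg
A match describes the letters only, and a promoter without one may hold an NF-kB site that departs from this consensus. RELA, TNFAIP2, TRAF1, IRAK2, IL1A, IL1B, TNF, IL24, ICAM1 and PTGS2 also had no κB match. Of the 12 genes with a κB match, TNFAIP3 differed between the groups by -1.0, CXCL3 by -0.77 and CXCL2 by -0.56. The differences of CCL20, NFKB1, NFKB2 and CXCL1 were -0.44, -0.42, -0.21 and -0.11. Those of NFKBIA, REL, IL6, CXCL5 and IL32 were -0.01, 0.01, 0.04, 0.12 and 0.25. Whether a match goes with a difference was not tested. No promoter was in the table for RELB, NFKBIE, CCL2, CCL5, LIF, CSF1 and CSF3.

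CXCL8 (IL-8), CXCL1, CXCL2, CXCL3 and CXCL5 attract neutrophils through the receptor CXCR2. In replicates 2 and 3 CXCL8, CXCL1, CXCL2 and CXCL3 lay lower in Epi, and none passed over all arrays. CXCL8 stood at 8.16, 10.07 and 10.91 in PBS and 8.26, 9.50 and 9.10 in Epi. Its pair differences were 0.11, -0.57 and -1.81, with a mean of -0.76 (-0.16 without PBS replicate 3 and -1.54 without PBS replicate 1, standard error 0.65, unadjusted p = 0.276 from limma, and adjusted p = 0.542 with the block). With the replicate 1 arrays left out it was -1.19 (adjusted p = 0.108 with the block and 0.342 without it, from limma).

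CXCL2 stood at 6.95, 7.86 and 8.29 in PBS and 7.12, 7.37 and 6.92 in Epi, a difference of -0.56 (standard error 0.36), and of -0.93 without the replicate 1 arrays (adjusted p = 0.116 from limma with the block). CXCL1 differed by -0.11 (standard error 0.42) and by -0.64 without those arrays, as its pair differences were 0.94, -0.31 and -0.96. The other probesets of CXCL1 and CXCL2 differed by -0.74 and -0.98 and did not pass (adjusted p = 1.00 and 0.378 from limma with the block over all probesets). CXCL3 was dim on every array. It read 4.35, 4.98 and 4.80 in PBS and 4.14, 3.73 and 3.96 in Epi, without overlap between groups, and differed by -0.77 (standard error 0.26, unadjusted p = 0.0178 from limma, and adjusted p = 0.238 with the block). Leaving out the replicate 1 arrays gave -1.05 (adjusted p = 0.0524 from limma with the block). Its other probeset differed by -0.12. CXCL5 was dim too, at most 3.38, and differed by 0.12, whereas its 2 other probesets differed by -0.11 and -0.12. These chemokine genes resemble each other closely, and 1 probeset each of CXCL1, CXCL2 and CXCL5 was left out because it is annotated to several genes, so the values of CXCL1 to CXCL3 may not be separate readings.

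The CC chemokines attract monocytes and lymphocytes. CCL20, a ligand of CCR6, stood at 4.63, 5.63 and 6.17 in PBS and 4.48, 5.64 and 4.99 in Epi, and its difference of -0.44 (standard error 0.44) came mainly from pair 3, with -1.18. Leaving out the replicate 1 arrays made it -0.58 (adjusted p = 0.359 from limma with the block). CCL2 ranged from 6.68 to 8.09 in PBS and only from 7.15 to 7.16 in Epi, and differed by -0.18 (standard error 0.35). CCL5 differed by 0.15 (standard error 0.27). None of the 3 passed in either fit.

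IL11, LIF and IL6 are cytokines of 1 family, which signals through the shared receptor chain gp130. IL11, known for bone metastasis of this cell line and for fibrosis, stood at 10.03, 9.42 and 7.98 in PBS (9.15 ± 1.05, SD, n = 3) and 11.16, 10.56 and 9.56 in Epi (10.43 ± 0.81, SD, n = 3). The groups overlapped, since Epi replicate 3 lay below PBS replicate 1, but each Epi array lay above the PBS array of its number, by 1.13, 1.14 and 1.58. The mean difference of 1.28 is a 2.43-fold higher level. Leaving out 1 array moved it between 0.70 (without PBS replicate 3) and 1.73 (without PBS replicate 1). Without the block its standard error was 0.57 (unadjusted p = 0.0526, adjusted p = 1.00 from limma), and with the block 0.21 (adjusted p = 0.00683). Without the replicate 1 arrays it was 1.36 (adjusted p = 0.0270 with the block, 0.493 without it, from limma), and with the block it also passed without pair 2 and without pair 3. It did not pass with the block after quantile normalization (adjusted p = 0.0838) or median centring (adjusted p = 0.0590), nor with the replicate 1 arrays as a batch (adjusted p = 0.271). All 3 probesets of IL11 were higher in Epi in 3 of 3 pairs, the other 2 by 0.82 and 0.76.

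LIF, leukemia inhibitory factor, a cytokine of stem cell self-renewal, stood at 9.91, 10.39 and 10.10 in PBS (10.13 ± 0.24, SD, n = 3) and 9.49, 9.65 and 9.58 in Epi (9.57 ± 0.08, SD, n = 3). The groups did not overlap, and the pair differences were -0.42, -0.74 and -0.52. Its mean difference of -0.56 (standard error 0.23), a 1.47-fold lower level, had an unadjusted p = 0.0430 and did not pass (adjusted p = 1.00 from limma, and 0.502 with the block). Without the replicate 1 arrays it was -0.63 (adjusted p = 0.126 with the block). A second probeset, 6.93 to 8.09 over all arrays, also showed no overlap, with -0.60, and the third differed by -0.23.

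IL6 gave different answers on its 2 probesets. The one with the higher mean stood at 5.83, 6.37 and 6.38 in PBS and 6.38, 6.26 and 6.06 in Epi and differed by 0.04 (standard error 0.25), and by -0.21 without the replicate 1 arrays. The other, singled out after its values were seen, stood at 5.42, 5.69 and 5.65 in PBS and 6.20, 6.32 and 6.94 in Epi. There all 3 Epi values exceeded all 3 PBS values, with a difference of 0.90 (unadjusted p = 0.0112 from limma over all probesets, and adjusted p = 0.263 with the block). Of the receptors of these cytokines, chosen here for that role, IL6ST, which encodes gp130, differed by 0.45 (standard error 0.55), with -0.50, 1.05 and 0.81 in the pairs, and by 0.93 without the replicate 1 arrays (adjusted p = 0.0582 from limma with the block). IL11RA and LIFR differed by 0.03 and 0.07, and none of the 3 receptors passed.

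**Figure D4:**
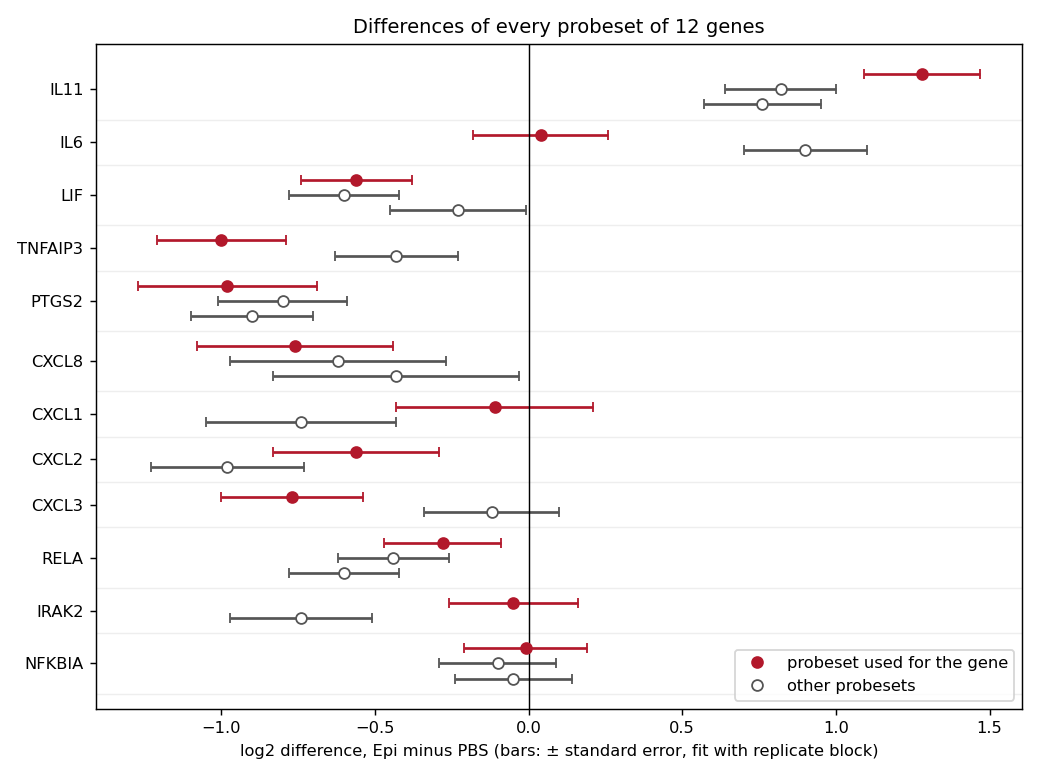
Difference between Epi and PBS (log2, horizontal axis) of each probeset of 12 genes, with the probeset used for the gene in red and the others open, and bars of ± 1 standard error from a fit with the replicate block over all probesets. The 3 probesets of IL11 lie at 1.28, 0.82 and 0.76 and those of PTGS2 at -0.98, -0.80 and -0.90, whereas the probesets of IL6 lie apart at 0.04 and 0.90.

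PTGS2 encodes cyclooxygenase-2, which makes prostaglandins. It stood at 4.85, 4.68 and 5.96 in PBS and 3.23, 4.65 and 4.67 in Epi. These are low values, and only PBS replicate 3 lay above the dim level of 5.69. Its 2 other probesets stayed under that level on every array, at most 5.55 and 5.14. The groups did not overlap, though PBS replicate 2 and Epi replicate 3 were nearly equal, and the pair differences were -1.62, -0.03 and -1.29. Its mean difference of -0.98 (standard error 0.48), a 1.97-fold lower level (-0.50 without Epi replicate 1 and -0.58 without PBS replicate 3), did not pass (unadjusted p = 0.0727 from limma, and adjusted p = 0.155 with the block), and without the replicate 1 arrays it was -0.66 (adjusted p = 0.319 from limma with the block). Without pair 2, the pair that differed by -0.03, it was -1.46 and passed (adjusted p = 0.00358 from limma with the block). That setting was chosen after seeing the data. ICAM1, an adhesion molecule for leukocytes, differed by 0.24 (standard error 0.26), with 0.70 in pair 1 and -0.26 in pair 3.

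The interleukin-1 cytokines, which start NF-kB signaling as well as being induced by it, lay lower in Epi in replicates 2 and 3 only. IL1B stood at 4.94, 7.27 and 7.18 in PBS and 4.99, 6.87 and 6.41 in Epi. Its difference was -0.38 (standard error 0.69) over all arrays and -0.59 without the replicate 1 arrays (adjusted p = 0.159 from limma with the block). IL1A, from 5.14 to 5.89 over all arrays, differed by -0.25 and by -0.49 without them. TNF and IL24 were dim, at most 5.19 and 4.87, and differed by -0.07 and 0.02. CSF1 and CSF3, growth factors of macrophages and granulocytes, differed by 0.15 and 0.04 with standard errors of 0.23 and 0.22. IL32, a cytokine without a mouse counterpart, differed by 0.25 (standard error 0.36).

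Many members have more than 1 probeset, 22 of the 31, and for 17 of these 22 all probesets had the same sign. Over all probesets of the arrays, limma with the block called 0 of the 71 probesets of these genes and 30 probesets in all, and the adjusted p of the IL11 probeset with the highest mean was then 0.0812. Averaged over its probesets IL11 differed by 0.95 (adjusted p = 0.0299 from limma with the block) and TNFAIP3 by -0.71, which did not pass (adjusted p = 0.209).

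Other genes of the pathway were read from 5 lists written by role. Of 91 measured genes on them, 1 was called with the block, PTX3 (0.673% of all genes were), and 0 without it, where 3 passed at an unadjusted p under 0.05. PTX3 encodes pentraxin 3, a soluble pattern recognition protein induced by interleukin-1 and TNF. It stood at 8.10, 9.17 and 9.51 in PBS and 6.47, 7.59 and 8.01 in Epi, so that the groups did not overlap, and the pair differences were -1.63, -1.58 and -1.50. Its mean difference of -1.57, a 2.97-fold lower level, had an adjusted p = 0.00109 from limma with the block. Without the replicate 1 arrays it was -1.54 (adjusted p = 0.0128 with the block, and 0.0951 without it). PTX3 was the only one of 23 measured NF-kB targets outside the main list that was called with the block, and 22 did not pass. By mean difference, 11 of the 23 lay above 0 and 12 below. Among the 22, the dim BCL2A1 differed by -0.99 without overlap between groups. Without the replicate 1 arrays it was -1.44 and passed (adjusted p = 0.0186 from limma with the block). TNFRSF9 differed by -0.85 (adjusted p = 0.0837 from limma with the block).

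Of 23 upstream receptors, adaptors and kinases, 0 were called in either direction. The 2 with the lowest unadjusted p were MAP3K14 and LTBR. MAP3K14 encodes NIK, the kinase that starts the alternative pathway. It stood at 6.50, 6.62 and 6.26 in PBS and 7.40, 7.68 and 7.02 in Epi, so that the groups did not overlap. Its difference was 0.90, with 0.89, 1.06 and 0.76 in the pairs, and it did not pass (adjusted p = 1.00 from limma, and 0.0526 with the block). Averaged over its probesets MAP3K14 differed by a smaller 0.54 (unadjusted p = 0.0545 from limma without the block). LTBR, the lymphotoxin beta receptor that acts through NIK, differed by 0.38 (standard error 0.23) and showed no overlap either, with at most 9.39 in PBS and at least 9.56 in Epi.

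None of 13 other IkB proteins and negative regulators was called, with TAX1BP1, a partner of A20, at 0.44 and TNIP2, another, at -0.33. None of 16 other chemokines was called, and 8 of the 16 were dim on every array. CXCL16 and CXCL14, those with the lowest unadjusted p among those not dim, differed by 0.20 and -0.12. None of 20 receptors of the listed ligands was called. The 2 with the lowest unadjusted p were TNFRSF1A, the main TNF receptor, at 0.56 (standard error 0.45, adjusted p = 0.576 from limma with the block) and IL1RAP, the shared chain of interleukin-1 receptors, at 0.23.

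The distance between the replicate 1 arrays and the other 4 was larger than that between treatments for most of these genes, and for a larger share of all genes. The mean of the 2 replicate 1 arrays differed from the mean of the other 4 by more than 1 in 6 of the 31 genes (19.4%, against 13.3% of all genes), and by more than the treatment difference in 21 of 31 (67.7%, against 83.6% of all genes). IL1B lay 1.97 lower on the replicate 1 arrays, CXCL8 1.69 lower, TRAF1 1.35 lower, NFKBIA 1.18 lower and CCL20 1.05 lower. IL11 lay 1.22 higher there. Among the genes not yet given without these arrays, the difference was then -0.50 for CCL2, 0.06 for CCL5, 0.01 for ICAM1, 0.02 for IL32, 0.03 for CSF1 and -0.08 for CSF3. It was -0.27 for IRAK2, -0.28 for NFKBIE, -0.14 for TRAF1, 0.08 for TNFAIP2 and 0.03 for NFKBIA. For the dim CXCL5, TNF and IL24 it was 0.09, -0.21 and -0.05. For TNFAIP3 and LIF the shift was 0.14 and -0.23, smaller than the treatment difference. The same held for CXCL3 (-0.12), NFKB1 (-0.30), RELA (-0.18), IL1A (-0.20), ICAM1 (-0.01) and CSF1 (-0.06). For PTGS2 (-0.95) and IL11 (1.22) it was smaller by little.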

How the data were processed

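Tumors were profiled on 6 Affymetrix Human PrimeView arrays, 3 per group. The values are log2 expression values of 49395 probesets as the authors deposited them. The submitters' notes list RMA and Expression Console and give no version for either, nor which arrays were normalized together. The 102 control probesets were left out. GEO's platform annotation gave 1 gene for 44988 probesets, several for 1832 and none for 2473. Only probesets with 1 gene were used, and symbols looked up in RefSeq (GRCh38.p14) changed for 0 of them.

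Differences between Epi and PBS were fitted with limma 3.58.1 (lmFit, eBayes, R 4.3.3) over all 18132 genes, with Benjamini-Hochberg adjustment and a threshold of 0.05. The fit without a block was the main one, as the paper names no test for the arrays, and the t-test that it names for other measurements was an alternative. For its array data the paper does give a criterion, a fold change above 2 with Q under 0.05, and reports genes that met it. It does not say how Q was obtained. Replicate numbers come from the labels, which do not say what a number stands for. Same-numbered arrays deviated together from their group means (r = 0.630, 0.627 and 0.453), so the fit with the replicate block is given beside results whose call it changed. PBS replicate 3 and Epi replicate 2 also had r = 0.523, and deviations cancel out within a group of 3, so the check does not settle the pairing.

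The genes and lists were chosen with earlier results of these data known. Values on every array are given for genes called in either fit, genes without overlap between groups, the 10 largest differences among genes not under the 30th percentile (5.69) on every array, and the 5 subunits. PTGS2 and CCL20 counted as not dim through PBS replicate 3 alone, so this rule can favor genes that read higher in 1 group. From the other lists, called genes are named, or else the 2 with the lowest unadjusted p. The limma fits with and without the block were also run on simulated data. The other steps had no such run. Alternatives were quantile normalization, median centring, a filter on dim genes, probesets averaged per gene, each probeset on its own, a variance trend, the methods' t-test, a replicate 1 batch, and leaving out arrays. Alternatives that combine the block with a left-out pair, averaged or single probesets or the filter were chosen after seeing the data. Arrays hold no read depth, and having 3 per group limits the precision.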

Additional observations from a re-analysis of the deposited data

How the results depend on the processing

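Over 24 alternatives, the 14 members chosen by the naming rule gave 328 differences, of which 318 kept their direction and 9 passed the adjusted threshold where the main comparison did not. Those 9 were IL11 in 6 fits with the replicate block, TNFAIP3 in 2 and PTGS2 in 1. The 10 reversals among these 14 were all in NFKB2, REL and IL1B, which never passed. NFKB2 was 0.06 with the block without pair 2, and leaving out 1 array gave -0.49 to 0.08 (0.08 without PBS replicate 2). REL was -0.01 without both replicate 1 arrays (with and without the block) and with the block without pair 3, and ranged from -0.32 to 0.32 over the left-out arrays (below 0 without PBS replicate 2, PBS replicate 3 or Epi replicate 1). IL1B ranged from -1.14 to 0.17 (above 0 without PBS replicate 2 or Epi replicate 1). IL6 and NFKBIA, described outside the rule and not in these counts, turned without the replicate 1 arrays, to -0.21 and 0.03.

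The count of called genes was 0 in the main comparison. It was 122 with the replicate block, 16 without both replicate 1 arrays, 162 without them with the block, 40 with the replicate 1 arrays as a batch, and with the block 9 after quantile normalization and 20 after median centring. Alternatives chosen after seeing the data gave, all with the block, 66 without pair 2, 129 without pair 3, 81 for the mean of the probesets, 30 over all probesets and 155 with the filter on dim genes.

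Of the 31 members, 0 were called in the main comparison. With the replicate block 2 were called, and 1 without both replicate 1 arrays, 2 without pair 2, 1 without pair 3, 1 for the mean of the probesets and 2 with the filter. With the block 0 were called after quantile normalization, after median centring and over all probesets. Of the other 91 pathway genes, 0 were called in the main comparison. With the block 1 was called, and the count was 2 without the replicate 1 arrays (PTX3 and BCL2A1) and 2 with the filter (PTX3 and MAP3K14). It was 1 with the replicate 1 arrays as a batch, and 1 with the block after quantile normalization, after median centring, without pair 2, without pair 3, for the mean of the probesets and over all probesets. PTX3 passed in 10 of 25 fits, the 9 with the block and the 1 with the batch term. The replicate block changed no other call of these genes. The cause of these changes was not tested.

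The count of members without overlap between groups was 6 over all arrays (19.4%, against 3.2% of all genes). Without both replicate 1 arrays it was 19 (61.3%, against 43.1%), as fewer arrays make overlap rarer by construction. Leaving out 1 array gave 14 without PBS replicate 1 (45.2%, against 24.4%) and 7 without Epi replicate 1 (22.6%, against 17.8%). It gave 9 without Epi replicate 3 (29%, against 8.55%). Without PBS replicate 2, PBS replicate 3 or Epi replicate 2 it was 6 (19.4%, against 5.33%, 5.56% and 5.54%). The member count was 4 after quantile normalization (12.9%, against 4.86%) and 5 after median centring (16.1%, against 4.05%). With the filter it was 4 of 22 (18.2%, against 3.68%), and for the mean of the probesets 4 (12.9%, against 2.27%).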
